A study of Mus musculus with 24 samples.

Results

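The comparison described here is the effect of a bromodomain inhibitor on mouse bone marrow macrophages 2 h after lipopolysaccharide (LPS), and it rests on 6 of the 24 arrays of the study. The arrays were chosen by their labels: 3 of inhibitor-treated cells with 2 h of LPS and 3 of control cells with 2 h of LPS, numbered as replicates 1 to 3 in each group. All cells came from the bone marrow of female C57BL/6 mice aged 6 weeks, and the study sampled each treatment at 0, 1, 2 and 4 h, with 3 arrays in each of the 8 groups. The sources used here do not give the compound, its dose, the length of treatment, the LPS dose, what the control cells received or how the marrow cells were grown into macrophages. The question was which genes a bromodomain inhibitor changes in LPS-stimulated macrophages.

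BET proteins (Brd2 and its relatives) bind acetylated lysines on histones through their bromodomains and help to bring the elongation kinase P-TEFb to promoters. LPS is sensed by Tlr4, which signals through NF-kB and interferon regulatory factors. A primary wave of cytokine and transcription factor genes is followed by a secondary wave that needs newly made proteins, among them interferon beta, which acts back on the cells and induces antiviral genes.

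Transcripts were read on 1-colour Illumina bead arrays, and values are log2 intensities as the authors normalized them. Effects are inhibitor minus control, as differences of log2 group means ± standard error (3 arrays against 3), and a call is an adjusted p under 0.05 in limma over 8201 features, 7583 of which carry a gene symbol. Features are called genes in counts. A floor of 6.46 log2 units, taken from olfactory receptor probes, marks the level at which a probe cannot be told from background. The macrophage label was checked against its markers, of which 9 of 11 lay above the floor on all 6 arrays, and the summed level of the list was 16.5 on every inhibitor array and 16.6 on every control array. Most markers of other cells lay below the floor on all 6 arrays, among them 9 of 10 of T and NK cells, 7 of 8 of dendritic cells, 7 of 11 of neutrophils and 5 of 9 of mast cells, basophils and eosinophils. The mast cell genes Cpa3, Fcer1a and Tpsb2, and S100a8, Mmp8, Dcn, Cd22 and Cd28, lay above it on all 6, with Cpa3 highest at means of 11.02 with the inhibitor and 10.97 in control cells, and none of the 8 was called. Replicate arrays of a group correlated at 0.977 to 0.995 over genes. In these bulk samples a change in the number of cells of a kind and a change in RNA per cell cannot be told apart, and 3 arrays a group limit the precision.

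The inhibitor lowered a set of LPS-inducible effector genes and raised the signal of histone genes. The largest falls were Edn1, the endothelin-1 precursor, at 18.0 times less than in control cells, and Fpr2, a formyl peptide receptor, at 9.84 times less. Genes of the interferon beta response, several interleukins and costimulatory receptors were also lower, while Tnf and Il1b, among the genes LPS raised most, were not called. The highest measured rises were those of Tspoap1 and Matn4, whose control arrays lay about at or below the background level, followed by Phlda1, Fosb and the histone gene H3c4. In all, 346 genes were lower (4.22% of those tested) and 223 were higher (2.72%), together 6.94%, and 108 of the lower and 44 of the higher genes differed at least 2-fold. All 3 inhibitor arrays lay below the floor for 36 of the lower genes, and all 3 control arrays for 18 of the higher genes. The median effect over all genes was 0.04. All 3 inhibitor arrays lay below all 3 control arrays for 799 genes (9.74%) and above them for 1015 (12.4%). With each of the 6 arrays left out in turn, 166 of the lower and 109 of the higher genes were called every time. All fits with arrays left out had no replicate block, so they did not use the pairing of same-numbered arrays. The count of lower genes was 217 when inhibitor replicate 3 was left out and 222 when control replicate 1 was, and that of higher genes was 143 without control replicate 1. In the fit blocked on replicate number, 637 genes were lower (7.77%) and 516 higher (6.29%), and these held all 346 and 223. The lower genes made up 60.8% of calls, a share that was 69.1% after cyclic loess and 73.4% after centring on 10 housekeeping genes, none of which was called.

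**Figure D1:**
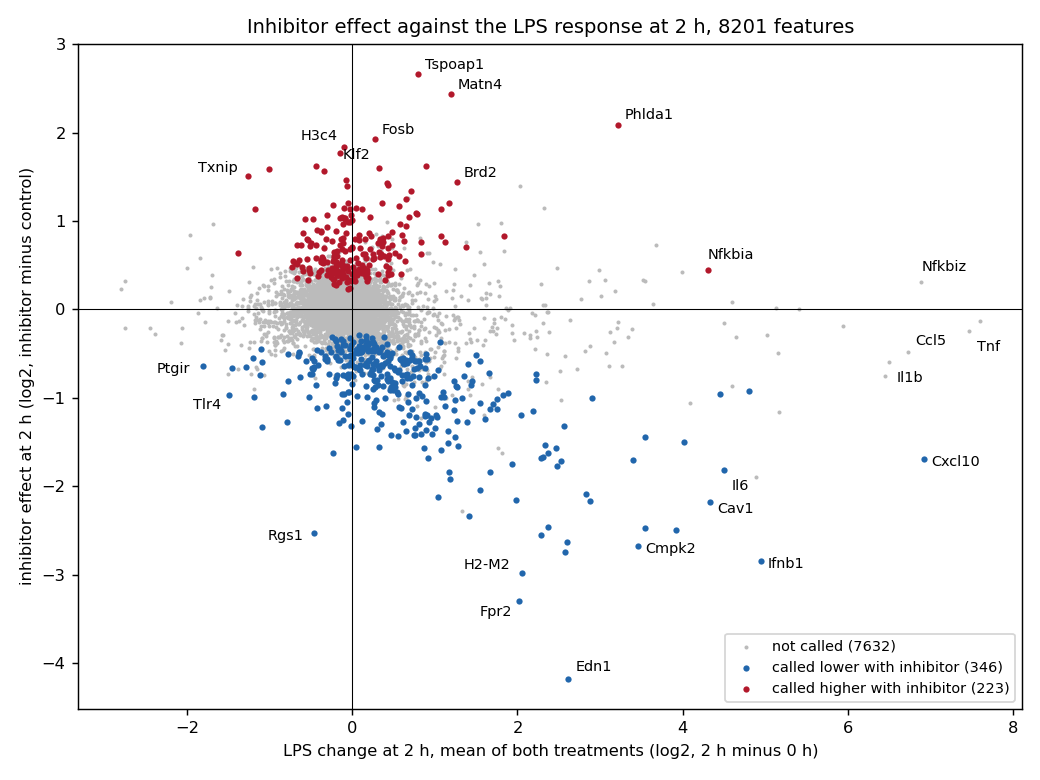
Inhibitor effect at 2 h (log2, inhibitor minus control, vertical axis) against the LPS change at 2 h averaged over both treatments (log2, horizontal axis), with 1 point for each of 8201 features, coloured by call. Called falls extend over LPS-raised genes down to Edn1 at -4.17, while Tnf, raised by 7.47, lies at -0.24.

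Both extremes of the LPS response were examined through genes that LPS moved at least 2-fold at 2 h with an adjusted p under 0.05. The LPS change was averaged over inhibitor-treated and control cells, a mean that uses the same 2 h arrays but not their difference. Of 262 genes raised by LPS (3.19% of those tested), 80 were lower with the inhibitor and 10 higher, with a median effect of -0.38. Of the 7825 genes in neither LPS class, 256 were lower and 209 higher, with a median of 0.05. LPS-raised genes made up 23.1% of all genes the inhibitor lowered. Among the 114 genes that LPS lowered at least 2-fold (1.39%), 10 were lower and 4 higher. The timing of induction separated the LPS-raised genes further. Of 103 genes raised at 2 h but not called at 1 h, 41 were lower and 0 were higher (median -0.73). Of 159 genes already called as raised at 1 h, 39 were lower and 10 higher (median -0.25). With the block, 60 of the 103 were lower and 2 higher, and 48 of the 159 were lower and 15 higher.

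Edn1 encodes a peptide best known as a constrictor of blood vessels, and macrophages make it after LPS. Its level was 6.77, 6.52 and 6.79 on the inhibitor arrays of replicates 1 to 3, against 10.64, 10.91 and 11.05 on the control arrays. All inhibitor arrays lay within 0.5 of the floor and all control arrays far above it, an effect of -4.17 ± 0.22 (adjusted p = 1.73e-10). Fpr2, which senses formylated bacterial peptides, was at 6.86, 7.12 and 6.82 in inhibitor-treated cells, against 10.41, 10.04 and 10.24 in control cells. These groups also lay far apart, with an effect of -3.30 ± 0.20 (adjusted p = 1.08e-09). The sources used here do not say if background was subtracted, and folds of genes this near the floor can be understated.

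H2-M2, a non-classical MHC class I gene, fell by 2.98 ± 0.45 (adjusted p = 0.000197), and Calhm6, a channel-like membrane protein, fell by 2.75 ± 0.27 (adjusted p = 1.47e-06). Rgs1, a brake on G protein signalling, was at 9.11, 9.42 and 8.83 with the inhibitor, against 11.41, 12.11 and 11.43 in control cells (effect -2.53 ± 0.46). Gja1, the gap junction protein connexin 43, and Gpr85, an orphan receptor, changed by -2.46 ± 0.22 and -2.34 ± 0.28, and Cav1, the caveolar coat protein, by -2.18 ± 0.46. Ch25h, which makes the antiviral oxysterol 25-hydroxycholesterol, averaged 10.19 ± 0.19 with the inhibitor, against 12.81 ± 0.18 in control cells (SD, n = 3 each). Its 2 groups did not overlap, and the effect was -2.62 ± 0.60 (adjusted p = 0.00798).

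**Figure D2:**
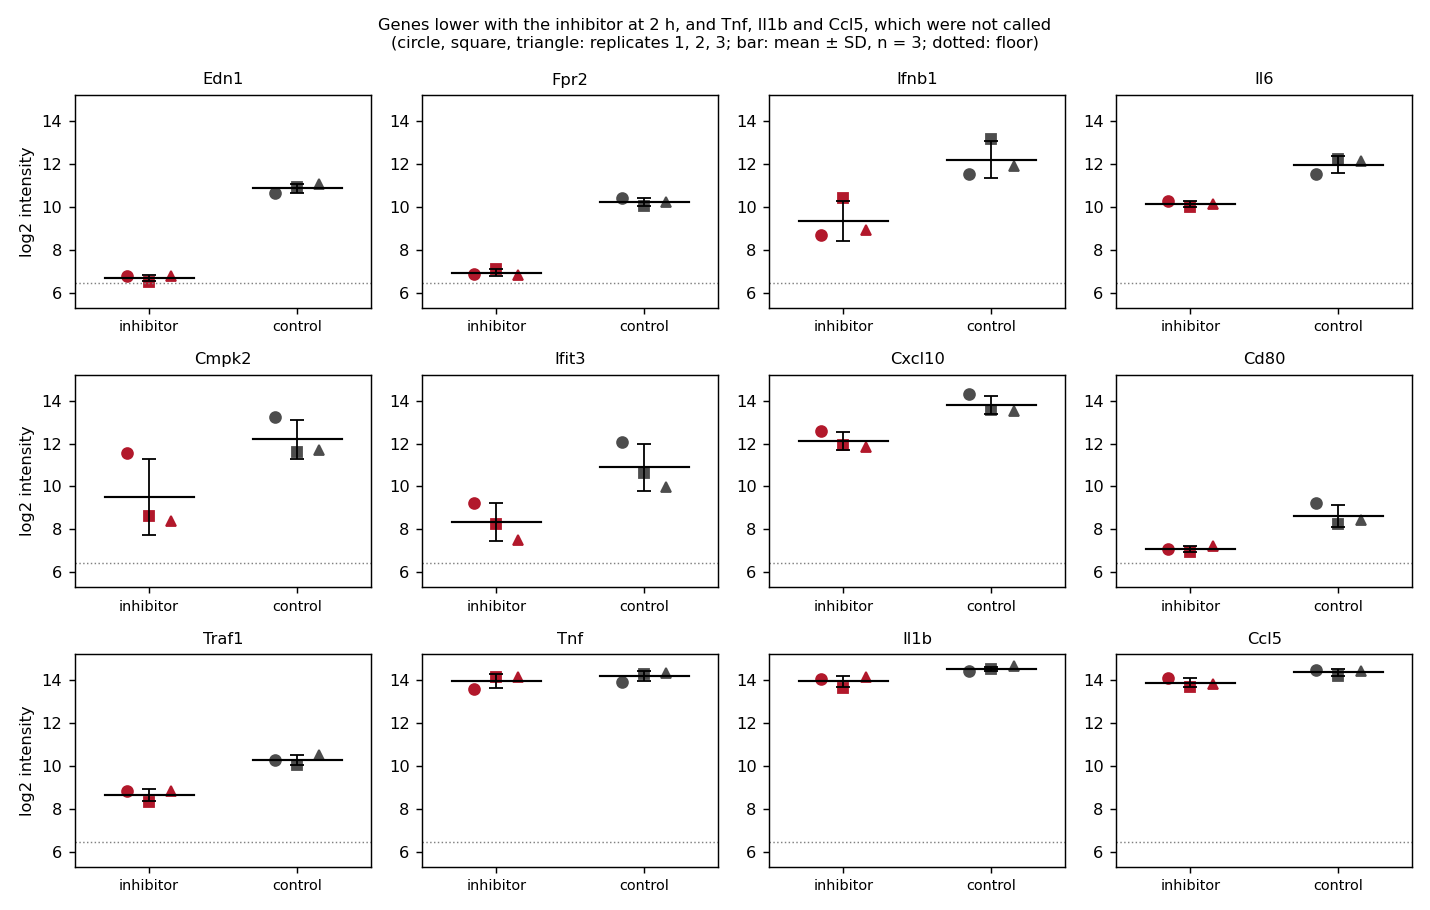
Log2 intensity on each array at 2 h of 9 genes called lower with the inhibitor and of Tnf, Il1b and Ccl5, which were not called, with inhibitor arrays left of control arrays in each panel, bars for the mean ± SD (n = 3) and a dotted line at the floor of 6.46. Inhibitor arrays of Edn1 and Fpr2 sit near the floor, whereas all arrays of Tnf lie between 13.58 and 14.34.

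The list counts that follow stand beside 4.22% lower and 2.72% higher of all genes (7.77% and 6.29% with the block). Among interleukins and other cytokines, 12 of 35 measured genes (34.3%) were lower and 0 higher (median effect -0.31). Ifnb1, which encodes interferon beta, was at 8.70, 10.41 and 8.94 in inhibitor-treated cells, against 11.52, 13.16 and 11.92 in control cells. Replicate 2 was highest in both groups, the groups did not overlap, and the effect was -2.85 ± 0.64 (adjusted p = 0.0077). Il6, an acute-phase and B cell cytokine, was at 10.29, 10.02 and 10.14 with the inhibitor, against 11.52, 12.22 and 12.16 without it. The Il6 groups lay more than a log2 unit apart (effect -1.81 ± 0.39, adjusted p = 0.0048). Of the interleukin-12 family, Il23a, Il27 and Il12a changed by -1.72 ± 0.44, -1.53 ± 0.32 and -0.91 ± 0.18. Il12a lay below the floor on all 3 inhibitor arrays, so its level was at least 1.36-fold lower. Genes of the T cell-costimulating ligands Tnfsf15 and Tnfsf4 changed by -2.04 ± 0.28 and -1.45 ± 0.23, and those of Il15, a lymphocyte survival factor, and Il33, an alarmin, by -1.44 ± 0.29 and -1.37 ± 0.27. Inhba, the activin A subunit, and Il1rn, the interleukin-1 receptor antagonist, made up the 12, with effects of -2.16 ± 0.55 and -1.26 ± 0.36. Il23a, Inhba and Il1rn each lost the call when some arrays were left out, in fits without the replicate block. The highest adjusted p was 0.111 for Il23a without control replicate 3. It was 0.106 for Inhba and 0.202 for Il1rn without control replicate 1. With all arrays and the block, the adjusted p was 0.00569 for Il23a, 1.08e-05 for Inhba and 4.28e-06 for Il1rn.

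Several cytokine genes that LPS raised most were not called. Still, of 26 genes raised by at least 4 log2 units, 7 were lower (26.9%) and 1 higher. Of all 262 LPS-raised genes, 30.5% were lower. Tnf, raised 7.47 log2 units by LPS, was at 13.58, 14.13 and 14.13 with the inhibitor, against 13.93, 14.28 and 14.34 in control cells. Its groups overlapped, and the effect was -0.24 ± 0.21 (adjusted p = 0.62). Il1b was at 14.04, 13.63 and 14.14 with the inhibitor, against 14.44, 14.51 and 14.63 in control cells, and Il1a at 13.37, 13.58 and 13.48 against 14.07, 14.34 and 14.28. For both interleukin-1 genes every inhibitor array lay below every control array, but the effects, -0.59 ± 0.45 and -0.75 ± 0.37, were not called (adjusted p = 0.56 and 0.294). At 1 h Il1b was called lower (-2.05 ± 0.45, adjusted p = 0.0177), while Il1a was not called (-0.86 ± 0.37, adjusted p = 0.633). Il10, an anti-inflammatory cytokine, gave -0.32 ± 0.26 near the floor. At 1 h Il10 was called lower (-1.35 ± 0.26, adjusted p = 0.00716), with its inhibitor arrays below the floor. Values above about 14 can be compressed by saturation, so differences of such genes can be understated.

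Among chemokines, 3 of 22 measured genes were lower (13.6%, against 4.22% of all genes) and 0 higher (median effect -0.13). Cxcl10, an interferon-inducible attractant of T cells, was at 12.58, 11.91 and 11.83 in inhibitor-treated cells, against 14.30, 13.57 and 13.53 in control cells. The groups did not overlap, replicate 1 was highest in both, and the effect was -1.69 ± 0.31 (adjusted p = 0.00122). The related Cxcl9 changed by -1.83 ± 0.54, and Ccl17, which attracts Ccr4-bearing T cells, by -0.77 ± 0.19. The Cxcl9 groups overlapped and 2 of its inhibitor arrays lay below the floor, so the size of its effect is uncertain. The Cxcl9 call was lost without control replicate 1 (adjusted p = 0.206), inhibitor replicate 2 (0.166) or inhibitor replicate 3 (0.169), and the Ccl17 call without control replicate 1 (0.0696), inhibitor replicate 1 (0.0554) or inhibitor replicate 3 (0.0686). Ccl12, a monocyte attractant, was at 8.28, 10.59 and 10.10 with the inhibitor, against 11.34, 12.40 and 12.08 in control cells. Replicate 1 was the lowest array in each group, and the effect of -2.28 ± 0.69 was not called (adjusted p = 0.0517) unless the replicate number was a block (adjusted p = 0.000653). Ccl2, another monocyte attractant, varied between 11.80 and 13.59 on inhibitor arrays and between 12.06 and 13.63 on control arrays, with an effect of -0.12 ± 0.86. Ccl5 was not called either (-0.48 ± 0.36), although at 1 h it was called lower (-1.69 ± 0.36, adjusted p = 0.0142).

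Of 44 measured interferon-stimulated antiviral genes, 12 were lower (27.3%, against 4.22% of all genes) and 0 higher. In 40 the effect was below 0 (median effect -0.69). With the replicate block, 29 were lower and 0 higher, where 7.77% of all genes were lower. Ifit3, an inhibitor of viral RNA translation and spread, was at 9.25, 8.25 and 7.49 in inhibitor-treated cells, against 12.07, 10.64 and 9.95 in control cells. Replicate 1 was highest in both groups, and the groups did not overlap (effect -2.56 ± 0.54, adjusted p = 0.0048). Cmpk2, a mitochondrial nucleotide kinase, was at 11.55, 8.62 and 8.38 with the inhibitor, against 13.25, 11.63 and 11.70 in control cells. Its inhibitor replicate 1 stood within 0.1 of the lowest control array, and the effect was -2.67 ± 0.60 (adjusted p = 0.00694). Mx2, a dynamin-like GTPase that blocks viruses, and Ifit2, a relative of Ifit3, changed by -2.49 ± 0.63 and -2.47 ± 0.63. The calls of Cmpk2, Mx2 and Ifit2 were lost without control replicate 1 (adjusted p = 0.0573, 0.0961 and 0.11), inhibitor replicate 2 (0.0501, 0.1 and 0.0578) or inhibitor replicate 3 (0.0582, 0.127 and 0.137). Those fits had no block, and with all arrays and the block their adjusted p was 0.000157, 0.00182 and 0.000382. Ifi204, Ifih1, Nampt, Parp9, Slfn1 and Trim30a also lost the call in some fit that left out 1 array. Thus 3 of the 12 calls were kept in all 6 such fits (highest adjusted p of the 9 lost between 0.0582 and 0.293). Ifi205, of the DNA-sensing p200 family, changed by -2.15 ± 0.28 (adjusted p = 3.92e-05). Isg20, an exonuclease, lay below the floor on all inhibitor arrays and was at least 1.59-fold lower.

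The interferon-induced GTPases, which attack the vacuoles of intracellular microbes, had the lowest median of the lists, -0.96. Of 15 measured genes, 6 were lower (40.0%, against 4.22% of all genes) and 0 higher. With the block these counts were 9 and 0, and all 15 had effects below 0. Irgm2 was at 9.84, 7.94 and 7.68 in inhibitor-treated cells, against 11.75, 9.83 and 10.24 in control cells. Inhibitor replicate 1 reached the level of the lowest control array there, while within each replicate number the inhibitor array was lower (effect -2.12 ± 0.44). Ifi47, Gbp3, Igtp and Gbp7 changed by -1.92 ± 0.35, -1.51 ± 0.27, -1.41 ± 0.34 and -0.96 ± 0.21, and Mx2, counted here too, completes the 6. Igtp lost its call without control replicate 1 (adjusted p = 0.0898), inhibitor replicate 2 (0.066) or inhibitor replicate 3 (0.0817), and Mx2 as given above. Probes of GTPase and Ifit genes can share signal with close relatives.

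Upstream of these genes, 4 of 30 interferon regulatory and JAK-STAT genes were lower (13.3%, against 4.22% of all genes) and 0 higher. With the block the counts were 8 and 0. The 4 were Irf9, the DNA-binding part of the interferon-activated complex (-1.02 ± 0.29), Irf2 (-0.96 ± 0.16), Socs1, a feedback inhibitor (-0.75 ± 0.17), and Irf5 (-0.73 ± 0.18). Irf2 kept its call with every array left out, whereas the highest adjusted p was 0.21 for Irf9 and 0.0596 for Socs1 without control replicate 1, and 0.0947 for Irf5 without inhibitor replicate 2. Irf1 was not called (-0.63 ± 0.37, adjusted p = 0.412), with inhibitor arrays at 13.76, 13.11 and 12.86 and control arrays at 14.46, 13.40 and 13.77. Those groups overlapped.

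The toll-like receptor pathway had 7 of 30 measured genes lower (23.3%, against 4.22% of all genes) and 0 higher. With the block the counts were 12 and 0, and the median effect was -0.34. Tlr4, the LPS receptor, was at 7.49, 8.09 and 7.90 with the inhibitor, against 8.51, 9.18 and 8.69 in control cells. The groups did not overlap, and the effect was -0.97 ± 0.24. Irak2, a kinase that sustains receptor signalling, changed by -1.29 ± 0.21, and Tlr6 and Tlr7, receptors of lipopeptides and of single-stranded RNA, by -0.73 ± 0.12 and -0.61 ± 0.13. Irak3, Tlr13 and Cd180 completed the 7, with effects between -0.73 and -0.47. Tlr4 lost its call without control replicate 2 (adjusted p = 0.0891) or inhibitor replicate 1 (0.0838), and the highest adjusted p of Irak3, Tlr13 and Cd180 was 0.176, 0.18 and 0.131 without control replicate 1, inhibitor replicate 1 and control replicate 1.

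NF-kB members and feedback regulators went both ways, with 3 of 24 lower and 2 higher. These are 12.5% and 8.33%, against 4.22% and 2.72% of all genes. Traf1, a survival adaptor of TNF receptors, was at 8.84, 8.33 and 8.81 in inhibitor-treated cells, against 10.28, 10.05 and 10.52 in control cells. These groups lay more than a log2 unit apart, with an effect of -1.62 ± 0.22 (adjusted p = 6.03e-05). Birc2, a ubiquitin ligase, and Tnip2 changed by -0.65 ± 0.13 and -0.59 ± 0.17. Map3k14, the NF-kB inducing kinase, and Nfkbia, the IkB alpha gene, changed by 0.75 ± 0.17 and 0.44 ± 0.13. The Nfkbia call was lost in 4 of the 6 fits that left out 1 array, with the highest adjusted p at 0.225 without control replicate 1, as was that of Tnip2 (0.23 without control replicate 1). That of Map3k14 reached 0.05 without inhibitor replicate 3. Rel and Nfkbiz, an NF-kB subunit and a nuclear IkB protein, were not called (-0.37 ± 0.19 and 0.31 ± 0.23). At 1 h Rel was called lower (-1.26 ± 0.19, adjusted p = 0.000692), while Nfkbiz was not called (0.22 ± 0.23).

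Activation and costimulatory surface genes were lower in 11 of 32 cases (34.4%, against 4.22% of all genes) and higher in 0 (median effect -0.34). Cd80, a ligand of Cd28 on T cells, was at 7.07, 6.95 and 7.23 in inhibitor-treated cells, against 9.21, 8.24 and 8.46 in control cells. Its partner Cd86 was at 8.56, 8.25 and 8.14 with the inhibitor, against 10.02, 9.54 and 9.50 without it. For both ligands the groups lay about a log2 unit apart, with effects of -1.56 ± 0.20 and -1.37 ± 0.22 (adjusted p = 3.92e-05 and 0.000372). Il10ra, the interleukin-10 receptor chain, changed by -1.35 ± 0.23, Ccrl2, a chemerin-binding receptor, by -0.96 ± 0.23, and the death receptor Fas by -0.94 ± 0.14. Trem1, an amplifier of inflammation, was at least 1.56-fold lower, since its inhibitor arrays lay below the floor. Of the 11 calls, those of Cd83, Slamf1, Il15ra and Slamf7 were lost in some fit that left out 1 array, with the highest adjusted p at 0.229, 0.155, 0.062 and 0.0622. Cd40 was not called (-0.19 ± 0.44), with inhibitor arrays at 13.12, 12.43 and 12.88 and control arrays at 13.39, 12.58 and 13.02.

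Of 15 inflammasome sensors and caspases, 5 were lower (33.3%) and 1 higher (6.67%), against 4.22% and 2.72% of all genes. The higher gene was Txnip, which is counted in the p53 list below too. Mefv, the pyrin gene, was at least 1.51-fold lower, and Casp4, the caspase that senses intracellular LPS, changed by -0.52 ± 0.12. Nod1, Nlrp3 and Aim2 changed by -1.31 ± 0.33, -1.01 ± 0.24 and -0.68 ± 0.16. The last 3 lost the call in some fits that left out 1 array, with the highest adjusted p at 0.0973 for Nod1 (inhibitor replicate 3 out), 0.0713 for Nlrp3 (control replicate 3 out) and 0.073 for Aim2 (control replicate 1 out). Of 31 MHC and antigen presentation genes, 5 were lower (16.1%) and 0 higher, H2-M2 and Ciita, the activator of class II genes (-1.09 ± 0.16), among them. Of 26 nitric oxide, arginine and prostaglandin genes, 5 were lower (19.2%) and 1 higher (3.85%). Slc7a2, an arginine transporter, changed by -1.13 ± 0.16. Nos2, the inducible nitric oxide synthase, lay below the floor on all 3 inhibitor arrays and 2 of the 3 control arrays, and was not called (adjusted p = 0.644). Ptgs2, the inducible cyclooxygenase, was at 6.45, 6.97 and 7.32 with the inhibitor, against 6.42, 7.30 and 8.11 in control cells. Its groups overlapped, and it was not called (-0.36 ± 0.37). In the MHC and nitric oxide lists, 2 of 5 and 4 of 6 calls were lost in some fit that left out 1 array, with the highest adjusted p between 0.0535 and 0.209. Among 25 sterol genes, Ch25h was the only 1 called (4.0%, near the 4.22% of all genes), against 3 lower with the replicate block. Ch25h is counted among the lower genes of the nitric oxide list too. The synthesis enzyme Cyp51 was at -0.35 ± 0.29 (adjusted p = 0.0423 with the block) and Pmvk at -0.24 ± 0.14.

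**Figure D3:**
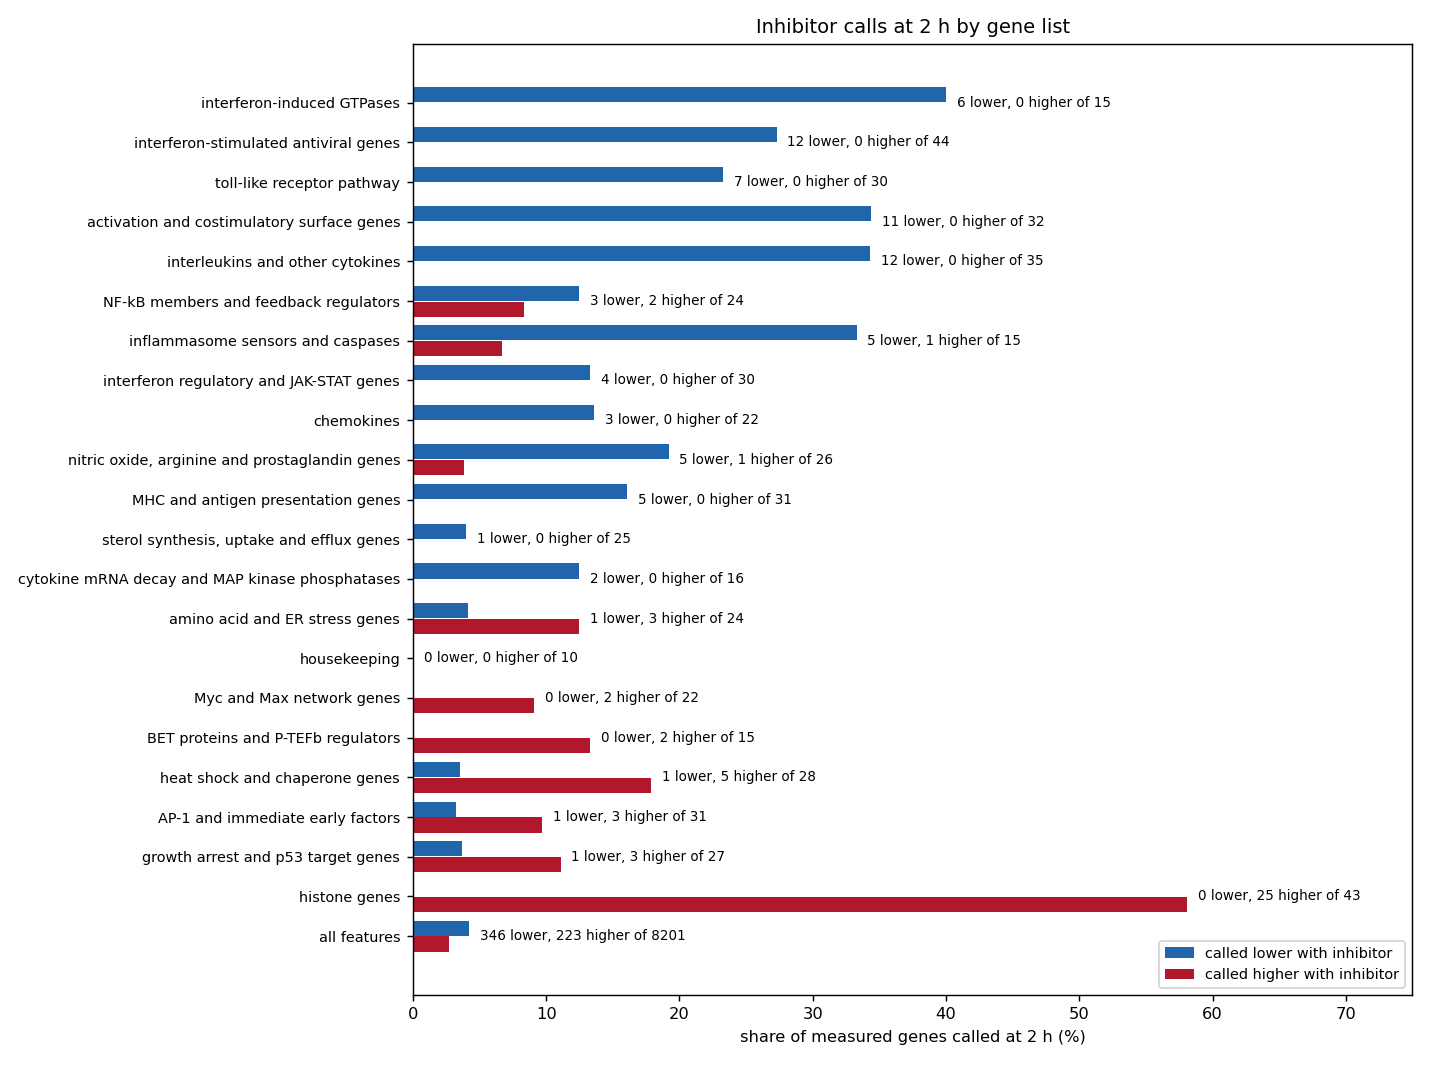
Share of measured genes called lower (blue) and higher (red) with the inhibitor at 2 h in each gene list, in percent, with the counts beside the bars, lists ordered by median effect and all 8201 features at the bottom. The interferon-induced GTPases reach 6 lower of 15 and the histone genes 25 higher of 43, against 346 lower and 223 higher of 8201.

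Among higher genes, histone genes formed the clearest group, with 25 of 43 measured genes higher and 0 lower (median effect 0.72). The share of 58.1% stands against 2.72% of all genes. It includes H2ac6 and H3c7, which lay below the floor in every control group and were kept only through inhibitor arrays. H3c4, a replication-dependent histone H3 gene, was at 9.39, 9.68 and 9.43 in inhibitor-treated cells, against 7.67, 7.59 and 7.73 in control cells. The arrays of each group lay within 0.3 of each other and the groups far apart, with an effect of 1.84 ± 0.18 (adjusted p = 1.47e-06). H3c1 was at least 3.11-fold higher, its control arrays lying below the floor, and H3c6, H4c6 and H4c9 changed by 1.57 ± 0.17, 1.46 ± 0.15 and 1.40 ± 0.16. The H2B genes H2bc12, H2bc14 and H2bc11 rose by 1.14 ± 0.19, 1.07 ± 0.18 and 1.03 ± 0.16 at high levels, between 11.16 and 12.84 on inhibitor arrays against 10.10 to 11.77 on control arrays. The variant genes H2ax, which marks DNA breaks when phosphorylated, and H3f3b, which encodes histone H3.3, rose by 1.43 ± 0.19 and 0.83 ± 0.16. Looked up after the values were seen, all 8 measured histone genes with effects below 0 were H2A genes, none called, from H2ac10 at -0.40 to H2ac20 at -0.12. Calls of H2ac18, H1f2 and H3c7 were lost without some array, with the highest adjusted p at 0.0859 without inhibitor replicate 2, 0.0595 without control replicate 1 and 0.179 without inhibitor replicate 1. Histone genes of a class are close to identical in sequence, so their probes may read each other's transcripts and the 25 are not separate measurements. What part of a histone gene's transcripts the labelled cRNA represents was not tested.

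Of 15 BET and P-TEFb regulator genes, 2 were higher (13.3%, against 2.72% of all genes) and 0 lower. Brd2, itself a BET protein, was at 13.70, 13.86 and 13.77 with the inhibitor, against 12.25, 12.41 and 12.36 in control cells. The replicates agree closely in each group, and the effect was 1.44 ± 0.21 (adjusted p = 0.000122). Hexim1, which holds P-TEFb inactive, was at 8.42, 8.52 and 8.24 with the inhibitor, against 7.10, 7.52 and 7.15 in control cells, an effect of 1.14 ± 0.26. Ell and Aff1, elongation factor genes, were not called (0.47 ± 0.15 and -0.21 ± 0.16). Ell was called with the replicate block (adjusted p = 0.0215).

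Tspoap1, which encodes a synaptic scaffold protein, and Matn4, a matrix protein, were detected mainly in inhibitor-treated cells. Tspoap1 was at 8.83, 9.26 and 9.32 in inhibitor-treated cells, against 6.50, 6.39 and 6.54 in control cells, where 1 array lay below the floor and the other two within 0.1 of it (effect 2.66 ± 0.37, adjusted p = 9.16e-05), so the size of its rise is uncertain. Matn4 was at 8.09, 8.38 and 8.39 with the inhibitor, against 5.84, 5.89 and 5.83 in control cells, at least 3.56-fold higher. For both genes the control arrays stood at background and the inhibitor arrays well above it. Acer2, a ceramidase, and Csrnp2 rose by 1.62 ± 0.17 and 1.62 ± 0.24, and Rbm15, an RNA-binding protein, by 1.41 ± 0.17.

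AP-1 and immediate early genes had 3 of 31 higher and 1 lower (8 and 2 with the block). The shares were 9.68% and 3.23%, against 2.72% and 4.22% of all genes. Fosb, an AP-1 subunit, was at 9.97, 9.94 and 10.80 with the inhibitor, against 8.25, 7.99 and 8.70 in control cells, and Klf2, a factor that restrains macrophage activation, at 10.66, 11.34 and 11.19 against 9.09, 9.44 and 9.86. Neither pair of groups overlapped, with effects of 1.93 ± 0.38 and 1.60 ± 0.27. Phlda1 was at 10.92, 13.23 and 13.21 with the inhibitor, against 8.73, 11.21 and 11.15 in control cells. Its replicate 1 lay more than 2 log2 units below the others in both groups. Without the block, the call (2.09 ± 0.58) was lost without control replicate 1 (adjusted p = 0.207), inhibitor replicate 2 (0.151) or inhibitor replicate 3 (0.158). Within replicate numbers 1 to 3 the rise of Phlda1 was 2.197, 2.019 and 2.055, and with the block its adjusted p was 0.0013. Klf7 went the other way (-1.19 ± 0.27).

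Of 28 heat shock and chaperone genes, 5 were higher (17.9%, against 2.72% of all genes) and 1 lower. The calls of Stip1, Dnajb9 and Hsp90aa1 were lost in 4 to 6 of the 6 fits that left out 1 array, with the highest adjusted p at 0.111, 0.119 and 0.126. Dnajb1, an Hsp70 co-chaperone, was at 11.57, 11.40 and 11.42 in inhibitor-treated cells, against 10.58, 10.16 and 10.22 in control cells, groups that did not overlap (effect 1.14 ± 0.16). Hspb1, a small heat shock protein gene, was at least 1.44-fold higher, and Dnaja2 changed by -0.75 ± 0.11. Of 27 growth arrest and p53 target genes, 3 were higher (11.1%) and 1 lower. Cdkn1a, the cell cycle inhibitor p21, changed by 0.76 ± 0.16, and Txnip, an inhibitor of thioredoxin, by 1.51 ± 0.35, a call lost without control replicate 2 (adjusted p = 0.0537). Bbc3, which promotes apoptosis, changed by -1.11 ± 0.30, and its call was lost without any of the 6 arrays (adjusted p from 0.0606 to 0.0932). Among 24 amino acid and ER stress genes 3 were higher (12.5%) and 1 lower, the cystine transporter Slc7a11 (-1.32 ± 0.29). The higher calls were those of Atf4, Sesn2 and Slc7a5, and all 3 were lost in 4 to 6 of the 6 fits that left out 1 array (highest adjusted p 0.13, 0.112 and 0.143). Sesn2 is also the remaining higher gene of the p53 list. Of 22 Myc network genes 2 were higher (9.09%), Odc1, the polyamine enzyme (0.61 ± 0.11), and Nop56, a nucleolar protein (0.86 ± 0.11). Myc itself lay near the floor and was not called (0.35 ± 0.19).

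**Figure D4:**
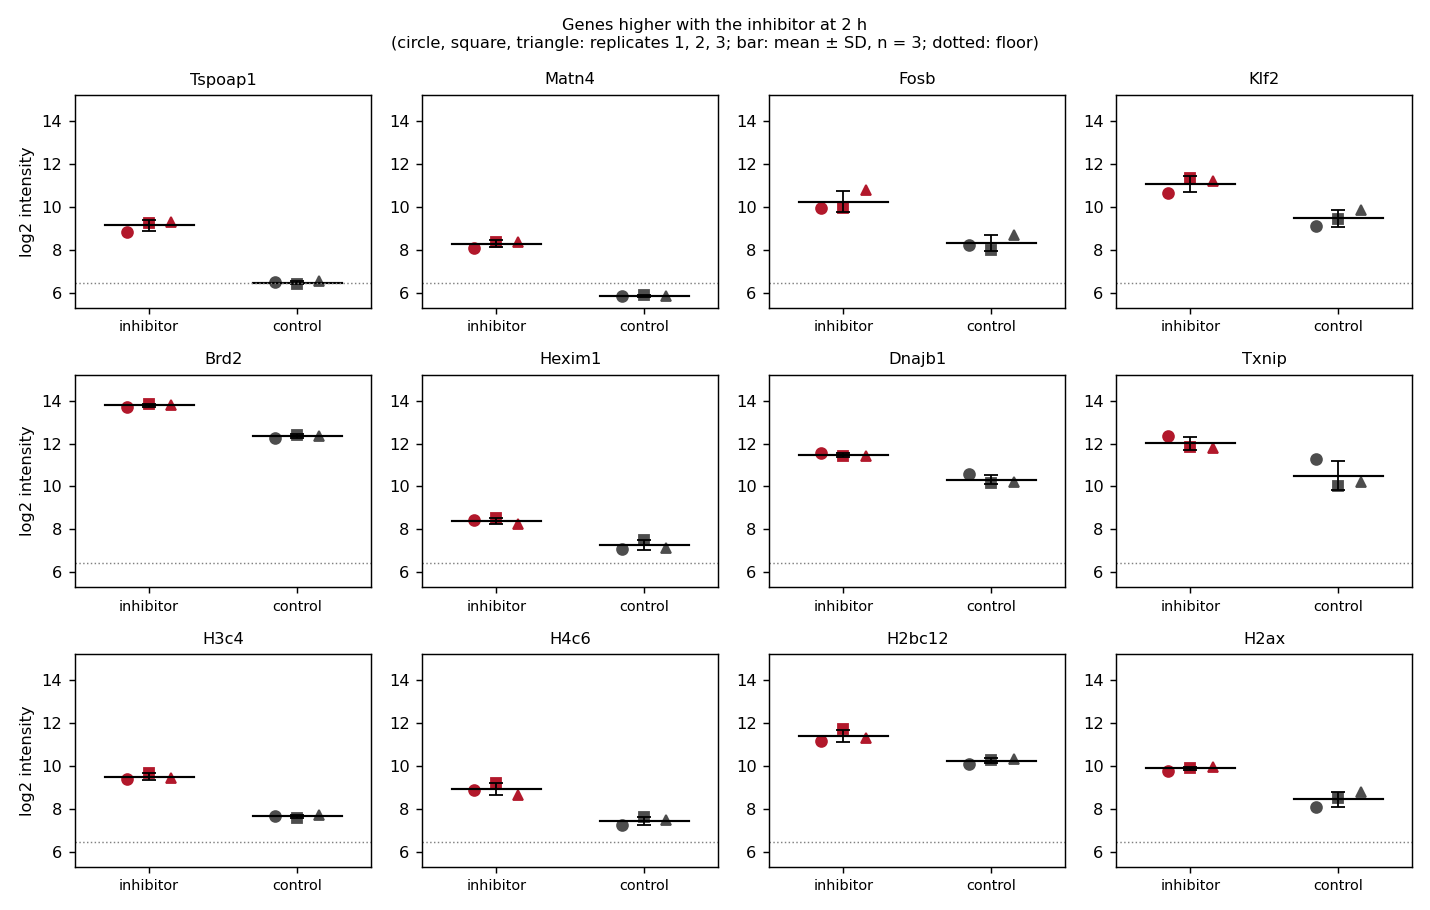
Log2 intensity on each array at 2 h of 12 genes called higher with the inhibitor, with inhibitor arrays left of control arrays in each panel, bars for the mean ± SD (n = 3) and a dotted line at the floor of 6.46. The 3 control arrays of Matn4 lie below the floor, while Brd2 lies high in both groups, at 13.70 to 13.86 on inhibitor arrays against 12.25 to 12.41 on control arrays.

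Promoters of 6 genes are printed to show the sequences beside which these effects occurred: 4 interferon or NF-kB responsive genes that were lower, Tnf, which was not called, and Brd2, which was higher. Each runs from 250 bases before to 50 bases after the gene start in RefSeq (build GRCm38.p6), in the direction of transcription. Capitals mark matches on either strand to GAAANNGAA, an interferon response element-like pattern, or to GGGNNNTTC, an NF-kB-like pattern.
Ifnb1: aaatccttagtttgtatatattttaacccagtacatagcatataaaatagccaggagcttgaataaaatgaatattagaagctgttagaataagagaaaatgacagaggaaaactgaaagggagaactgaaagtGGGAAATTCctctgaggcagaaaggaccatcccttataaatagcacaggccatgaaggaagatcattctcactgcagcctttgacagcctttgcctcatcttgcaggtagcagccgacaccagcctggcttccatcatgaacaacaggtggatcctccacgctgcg
Ifit3: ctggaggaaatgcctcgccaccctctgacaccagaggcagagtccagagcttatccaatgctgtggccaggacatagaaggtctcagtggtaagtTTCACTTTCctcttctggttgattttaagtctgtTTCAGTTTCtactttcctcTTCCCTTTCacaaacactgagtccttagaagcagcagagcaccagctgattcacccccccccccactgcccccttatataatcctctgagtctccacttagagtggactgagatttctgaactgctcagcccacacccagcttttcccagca
Cxcl10: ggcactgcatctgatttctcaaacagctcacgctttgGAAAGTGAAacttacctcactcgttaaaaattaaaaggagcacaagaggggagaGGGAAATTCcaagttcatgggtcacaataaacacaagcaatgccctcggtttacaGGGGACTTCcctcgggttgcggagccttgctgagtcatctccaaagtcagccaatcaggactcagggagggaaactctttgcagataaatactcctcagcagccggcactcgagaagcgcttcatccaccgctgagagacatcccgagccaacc
Il6: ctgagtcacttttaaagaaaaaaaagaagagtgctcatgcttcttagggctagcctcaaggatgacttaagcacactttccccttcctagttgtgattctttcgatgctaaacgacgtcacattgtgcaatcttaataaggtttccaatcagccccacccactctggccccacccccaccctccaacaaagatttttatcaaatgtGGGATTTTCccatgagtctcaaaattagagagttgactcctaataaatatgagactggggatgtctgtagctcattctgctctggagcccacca
Tnf: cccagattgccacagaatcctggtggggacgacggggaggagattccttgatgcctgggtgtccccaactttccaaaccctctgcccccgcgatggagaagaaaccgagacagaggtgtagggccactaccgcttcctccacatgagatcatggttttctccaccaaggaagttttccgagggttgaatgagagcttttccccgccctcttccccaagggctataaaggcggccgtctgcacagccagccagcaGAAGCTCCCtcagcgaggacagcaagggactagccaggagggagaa
Brd2: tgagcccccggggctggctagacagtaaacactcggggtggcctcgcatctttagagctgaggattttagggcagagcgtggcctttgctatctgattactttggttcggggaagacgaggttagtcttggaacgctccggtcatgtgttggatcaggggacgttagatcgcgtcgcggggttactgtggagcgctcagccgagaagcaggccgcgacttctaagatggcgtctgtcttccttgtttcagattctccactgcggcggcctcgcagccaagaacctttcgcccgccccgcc
They lie at chr4:88522745-88523044 (Ifnb1, minus strand), chr19:34583279-34583578 (Ifit3, plus), chr5:92348840-92349139 (Cxcl10, minus), chr5:30012864-30013163 (Il6, plus), chr17:35201958-35202257 (Tnf, minus) and chr17:34119851-34120150 (Brd2, minus). Ifit3 holds 3 interferon-like matches, Cxcl10 holds 1 of that kind and 2 NF-kB-like matches, and Ifnb1, Il6 and Tnf hold 1 NF-kB-like match each. The Tnf match starts 4 bases after the gene start. Only these exact spellings were marked, so unmarked stretches, as in Ifnb1, can hold other forms of such elements. Neither pattern is in the Brd2 window.

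Over all genes, promoters were found for 266 of 323 named lower genes, 170 of 207 named higher genes and 6245 of 7583 tested genes. The ratio of observed to expected CpG had a median of 0.589 in lower genes and 0.822 in higher genes, against 0.774 in all tested genes. The split was wider within LPS-raised genes, at 0.375 for the 66 that were lower with the inhibitor, against 0.713 for the 121 that were not called. A ratio over 0.6 was held by 24.2% of those 66 promoters and 62.8% of those 121. Of the printed promoters, Ifit3, Il6 and Ifnb1 had ratios of 0.056, 0.214 and 0.22, Tnf 0.436, Cxcl10 0.528 and Brd2 0.938. The interferon-like pattern stood in 13.9% of lower and 5.29% of higher genes, against 7.83% of all tested genes and 8.57% of the 27025 promoters in the RefSeq table. Within LPS-raised genes it stood in 19.7% of the 66 lower and 14.9% of the 121 not called. It stood in 8 of the 14 lower genes of the interferon lists that had a promoter, and list members not called were not counted. Lengthened by a final A, it stood in 7.52% of lower and 2.35% of higher genes, against 3.51% of all tested. The NF-kB-like pattern stood in 17.7% of lower and 14.1% of higher genes, against 15.3% of all tested genes and 14.0% of the table. Within LPS-raised genes it stood in 27.3% of the 66 lower and 25.6% of the 121 not called. Its spelling was settled after 2 others had been counted. Lengthened by a final C, it stood in 9.02% of lower and 5.88% of higher genes, against 6.07% of all tested. A looser form, with the TT left free and CC at the end, stood in 50.4% of the table and ran the other way, in 59.4% of lower and 70.0% of higher genes against 67.2% of all tested, so the order of the NF-kB-like shares depends on the spelling. The AP-1-like TGANTCA stood in 10.5% of lower and 3.53% of higher genes, against 5.3% of all tested, and TATAAA in 10.2% and 16.5%, against 7.48%. CCAAT stood in 35.0% and 49.4%, against 39.1%, and the octamer ATTTGCAT in 0.376% and 5.88%, against 1.43%. Histone genes hold much of this among the higher genes: TATAAA stood in 61.9% of the 21 histone promoters and 10.1% of the 149 others, CCAAT in 71.4% and 46.3%, and the octamer in 23.8% and 3.36%. These are descriptions of letters within 300 bases, with no test.

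The effect at 2 h lay between a small one before LPS and a wider one later. Before LPS, 0 genes were lower and 13 higher (0.0% and 0.159% of those tested), and all 13 were histone genes, 12 of them also higher at 2 h. At 1 h, 64 were lower (0.78%) and 43 higher (0.524%), and at 4 h 840 were lower (10.2%) and 1034 higher (12.6%). Each time has its own control arrays. Of the genes lower at 2 h, 12.7% were also lower at 1 h, which is 68.8% of the 1 h list, and 66.2% were lower at 4 h, which is 27.3% of the 4 h list. Of those higher at 2 h, 16.1% were higher at 1 h and 86.5% at 4 h, which is 83.7% and 18.7% of those lists. No gene was called in opposite directions at 2 h and at another time.

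The effect at 2 h was then tested against that at each other time. Between 2 h and 0 h, 72 genes differed (0.878%), 53 with a more negative and 19 with a more positive effect at 2 h, and the count with the block was 246. Edn1, Fpr2 and Calhm6 differed most clearly, with differences of -4.14 ± 0.31, -3.32 ± 0.28 and -2.75 ± 0.38. Both 0 h groups of Edn1 lay below the floor, so its effect there could not be measured. Cd80 and Traf1 were also more negative at 2 h, and Dnajb1 more positive. Of the 26 named genes that differed, 9 had a group below the floor at 0 or 2 h. Between 2 h and 1 h, 15 genes differed (0.183%; 109 with the block). Edn1 was at -1.59 ± 0.22 at 1 h, where its inhibitor arrays lay below the floor, and Fpr2 at -1.02 ± 0.20, differences of -2.59 ± 0.31 and -2.28 ± 0.28 (adjusted p = 0.000304 for both). Il6 was not among them, at -2.65 ± 0.39 at 1 h and -1.81 ± 0.39 at 2 h. Neither were Il1b, Ccl5, Il10 and Rel, called lower at 1 h but not at 2 h. The count against 0 h was 122 without the 0 h inhibitor array of replicate 1, and 23 to 34 without the 0 h inhibitor array of replicate 2 or 3, the 0 h control array of replicate 2 or 3, the 2 h inhibitor array of replicate 3 or the 2 h control array of replicate 1. The count against 1 h was 25 or 23 without the 2 h control array of replicate 2 or the 2 h inhibitor array of replicate 1, and 3 to 7 without the 2 h control array of replicate 1, the 2 h inhibitor array of replicate 3, the 1 h control array of replicate 2 or 3, or any 1 h inhibitor array.

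Between 2 h and 4 h, 116 genes differed (1.41%; 459 with the block), 29 with a more negative and 87 with a more positive effect at 2 h. Samsn1, an adaptor protein, was at -1.11 ± 0.16 at 2 h and -0.09 ± 0.16 at 4 h, and Klhl25 and Dtx4, of ubiquitin ligases, were likewise lower at 2 h and about 0 at 4 h. Many others came later. Fcgr1, the high-affinity IgG receptor, was at -0.24 ± 0.18 at 2 h and -2.73 ± 0.18 at 4 h, and Kynu, a tryptophan pathway enzyme, at -0.28 ± 0.31 and -2.25 ± 0.31. Il12a, Isg20, Matn4, Nos2 and the GTPase gene Tgtp1 were called too, but each had a group below the floor at 2 or 4 h. Mknk2, a kinase that acts on the cap-binding factor of translation, was at 1.19 ± 0.21 at 2 h and 2.44 ± 0.21 at 4 h. Cmpk2, Mx2 and Cxcl10, all lower at 2 h, stood at -0.25, 0.04 and -0.46 at 4 h. Those differences were not called (adjusted p = 0.195, 0.203 and 0.204) unless the replicate number was a block (0.0189, 0.0426 and 0.0257). The histone gene H3c4 held 1.53, 1.79, 1.84 and 2.12 at 0, 1, 2 and 4 h. The count against 4 h was 193 without the 2 h control array of replicate 1, 69 or 67 without that of replicate 2 or 3, 67 or 74 without the 2 h inhibitor array of replicate 2 or 3, and 67 without the 4 h inhibitor array of replicate 3.

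**Figure D5:**
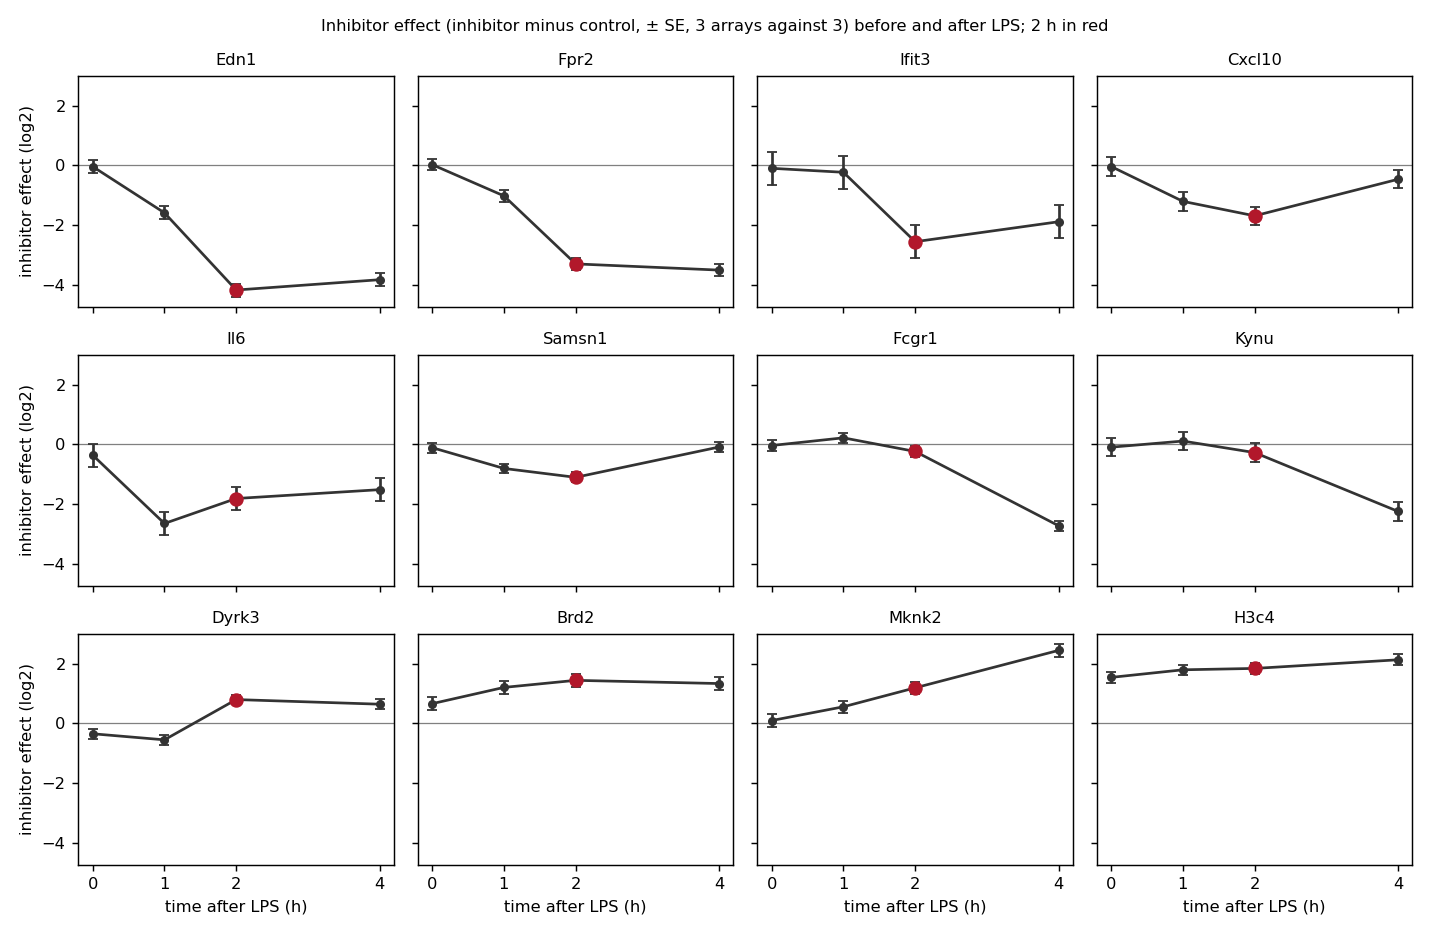
Inhibitor effect (log2, inhibitor minus control) ± SE at 0, 1, 2 and 4 h after LPS for 12 genes, with the 2 h value in red. Edn1 and Fpr2 fall between 1 h and 2 h and stay low, Samsn1 returns to about 0 at 4 h, Fcgr1 and Kynu are lower at 4 h, and H3c4 is higher at every time.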

How the data were processed

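RNA of 24 samples was read on 1-colour Illumina arrays. Per the labels, RNA was purified on RNeasy columns and biotinylated cRNA was made with the MessageAmp kit. The design text calls the replicates biological. The values are log2 intensities the authors deposited after normalization, read as log2 from their range of 5.354 to 15.172. The submitters' processing notes name limma, with no version, and the sources used here do not say if background was subtracted. The 72 columns of a second table, of raw signals, were left out because they are headed by array positions that cannot be paired with samples.

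Of 25697 probes, 23978 carried 1 symbol, 1719 none and 0 several. A probe was kept when above the floor (the 99th percentile of 1304 olfactory and vomeronasal receptor probes) on all arrays of a group, which left 10887, and the brightest kept probe stood for a gene, giving 8201 features. Some genes were thus kept only through the group where they were high. Matn4, H2ac6 and H3c7 lay below the floor in every control group, and Mefv, Trem1 and Slamf1 in every inhibitor group. With only genes above the floor on all 24 arrays, 232 of 6551 were lower and 169 higher. Where a group lay wholly below the floor, its fold is given as at least the fold against the floor.

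Group means were fitted with limma 3.58.1 (R 4.3.3, lmFit and eBayes) over 24 arrays, with 16 residual degrees of freedom, two-sided tests and Benjamini-Hochberg adjustment. LPS classes used the mean of both treatments. The fit was also run on simulated data with independent noise, which lacked the deviations that same-numbered arrays share here. At 2 h, deviations of same-numbered arrays from their group means correlated at 0.653 to 0.783, and at 0.563 or above at every time, so the numbers pair the samples, and fits with the number as a block stand beside those without. The alternatives were that block, 2 h arrays alone, other filters, scalings, probe rules and variance settings, array weights, and arrays left out, including all of replicate 1, chosen after seeing the data. Fits with arrays left out had no block.

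The named genes were the 15 largest called falls and rises whose groups did not overlap, a fixed panel, the called members of each list (where fewer than 4 were called, the largest changes up to 4) and the 5 largest differences a direction between times. Genes looked up outside this rule are said to be so. The comparison, lists and members were chosen with earlier results of these data known. Promoter sequences are from RefSeq (GRCm38.p6), matched by symbol, and the motifs were chosen with results known. Some genes of this response are not analysed here.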

Additional observations from a re-analysis of the deposited data

Results flagged for a closer look

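The inhibitor effect differed between 2 h and another time for the genes below, each by limma's test of the difference itself over 8201 genes (adjusted p under 0.05). Each value is the effect at 2 h minus that at the other time, on the log2 scale, and no cause was tested. Where a gene had a group below the floor, its value is a difference of measured levels and its size is uncertain, which holds for 9 of the 26 genes against 0 h, 3 of 8 against 1 h and 5 of 14 against 4 h. Against 0 h, the difference was -4.14 for Edn1, -3.32 for Fpr2, -3.05 for H2-M2, -2.75 for Calhm6, -2.21 for Gja1, -2.10 for Ifi205, -2.03 for Tnfsf15, -2.02 for Gpr85, -1.64 for Traf1, -1.52 for Tnfsf4, -1.48 for Cd80, -1.43 for Gramd1b, -1.31 for Schip1, -1.14 for Slc7a2, -0.99 for Samsn1, -0.98 for Ciita, -0.88 for Mefv, -0.84 for Dtx4 and -0.72 for Tlr6. It was 2.37 for Matn4, 1.51 for Acer2, 1.30 for Hapln3, 1.15 for Dyrk3, 1.13 for Rbm15, 0.99 for Dnajb1 and 0.88 for Riox1. Against 1 h, the difference was -2.59 for Edn1, -2.28 for Fpr2, -1.94 for Ifi205, -1.34 for Gramd1b and -1.18 for Schip1. It was 1.35 for Dyrk3, 0.93 for Cmtr2 and 0.83 for Riox1. Against 4 h, the difference was -1.49 for Agfg2, -1.27 for Klhl25, -1.25 for Mknk2, -1.02 for Dtx4 and -1.02 for Samsn1. It was 2.49 for Fcgr1, 2.00 for Tgtp1, 1.97 for Kynu, 1.85 for Il12a, 1.68 for Cfb, 1.60 for Matn4, 1.45 for Isg20, 1.15 for Nos2 and 0.92 for Cd180.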

How the results depend on the processing

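With the replicate number as a block, 637 genes were lower and 516 higher at 2 h, against 346 and 223 without it, and the differences from 0, 1 and 4 h numbered 246, 109 and 459, against 72, 15 and 116. Beyond the calls gained by Ccl12, Cfb, Cyp51, Dusp4, Ell and Stard4, the block changed no other call among the 171 named genes at 2 h. With array weights the 5 counts were 688, 531, 371, 137 and 461. The 6 arrays at 2 h alone gave 172 lower and 95 higher genes, and 932 and 806 with the block. With only genes above the floor on all 24 arrays, the differences numbered 20, 8 and 50, a filter that leaves fewer genes and removes those at background in some group. Without all arrays of replicate 1, 482 genes were lower and 221 higher, and the differences numbered 225, 66 and 444. Leaving out single 2 h arrays gave 217 to 332 lower and 143 to 191 higher genes, and leaving out single arrays of either time gave 23 to 122, 3 to 25 and 67 to 193 differences. Of 143 named genes called at 2 h, 91 were called with each of the 6 arrays left out, in fits without the block. None of those 143 changed direction at 2 h under any alternative, while 5 genes not called did under some (Ccl2, Cd40, Fcgr1, Kynu and Ptgs2). The slide block was not run, since slides cannot be paired with samples. Except for construction as stated, the cause was not tested. Dim signals near the floor and bright ones near saturation limit the folds.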
